A study of Drosophila melanogaster with 4 samples.

Results

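Arm 3R, the right arm of chromosome 3 of Drosophila melanogaster, was described here by its clusters of histone H4 acetylated at lysine 8 (H4K8ac), with the 2 Mb nearest the centromere left out. A cluster is a stretch of the genome that the authors listed as enriched in chromatin immunoprecipitation and sequencing (ChIP-seq), and clusters belonged to the set when they lay on 3R and began after the first 2000000 bp of the arm. The rule used position alone. It took 2160 of the 9912 clusters of the series-wide list, 1208 of the 5692 clusters of replicate 1 and 1187 of the 5482 clusters of replicate 2. The stretch runs from there to the end of the arm at 27905053 and is 25.9 Mb long in FlyBase release 5 coordinates. In the series-wide list the cluster just outside the border, at 3R 1998676 to 2000604, reached across it and was 1 of the 178 left out, and the first one inside was at 3R 2017288 to 2018648 (1361 bp).

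The libraries came from wild-type larvae of the laboratory strain Oregon-R, in the third larval instar, which ends when the animal forms a puparium. The ChIP group held 2 replicates precipitated with a rabbit polyclonal antibody against human histone H4 acetylated at lysine 8, and 2 input DNA libraries had no list analysed here. The labels name no dissection and no treatment, so a cluster cannot be assigned to a tissue. Nothing in the labels says that the replicates were separate collections of animals, and the spread between them can be a technical one. The lists give no read counts, and the depth behind a cluster is unknown.

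Acetylation removes the positive charge of a lysine in the histone tail and gives bromodomain proteins a place to bind, and acetylated histone H4 is known from promoters and from the bodies of transcribed genes. The mark is placed by acetyltransferases and removed by deacetylases. In the fly, stretches with little acetylation include genes kept silent by Polycomb proteins and chromatin bound to the nuclear lamina. Arm 3R is known for the homeotic gene complexes, which are silent in much of the body. No gene was placed on the coordinates below, since the gene positions at hand were those of release 6.

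H4K8ac clusters took up about an equal share of 3R in the replicates, and the series-wide list took up more. The clusters covered 27.8% of the stretch in the series-wide list, 14.3% in replicate 1 and 13.2% in replicate 2, or 7.20, 3.71 and 3.41 Mb. The replicate mean was 13.7% ± 0.815 (SD, n = 2). There were 83.4 clusters per Mb in the series-wide list, 46.6 in replicate 1 and 45.8 in replicate 2. The replicates therefore differed little in number and more in length: the mean cluster measured 3071 bp in replicate 1, and in replicate 2 it measured 2873 bp. The 3R clusters were 21.8% of the series-wide list, 21.2% of the replicate 1 list and 21.7% of the replicate 2 list.

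Most 3R clusters were short, and a small number of long ones held much of the covered sequence. The median length was 1827 bp in the series-wide list, 1998.5 bp in replicate 1 and 1962 bp in replicate 2, with an interquartile range of 1293 to 3081 bp, 1554 to 3177 bp and 1518 to 2909 bp. Clusters under 2 kb made up 57.5% of the series-wide list, 50.0% of replicate 1 and 52.1% of replicate 2, but 24.2%, 25.9% and 28.4% of the bases. At the other end, clusters of 10 kb or more numbered 117 in the series-wide list, 36 in replicate 1 and 30 in replicate 2. They were 5.42%, 2.98% and 2.53% of the clusters and held 31.3%, 17.6% and 15.9% of the bases. The lists differed in their shortest members: 553 series-wide clusters (25.6%, with 8.60% of the bases) were shorter than the shortest cluster of either replicate list. All 2160 series-wide clusters also began and ended on even positions, against 617 of 1208 starts in replicate 1 and 581 of 1187 in replicate 2.

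**Figure D1:**
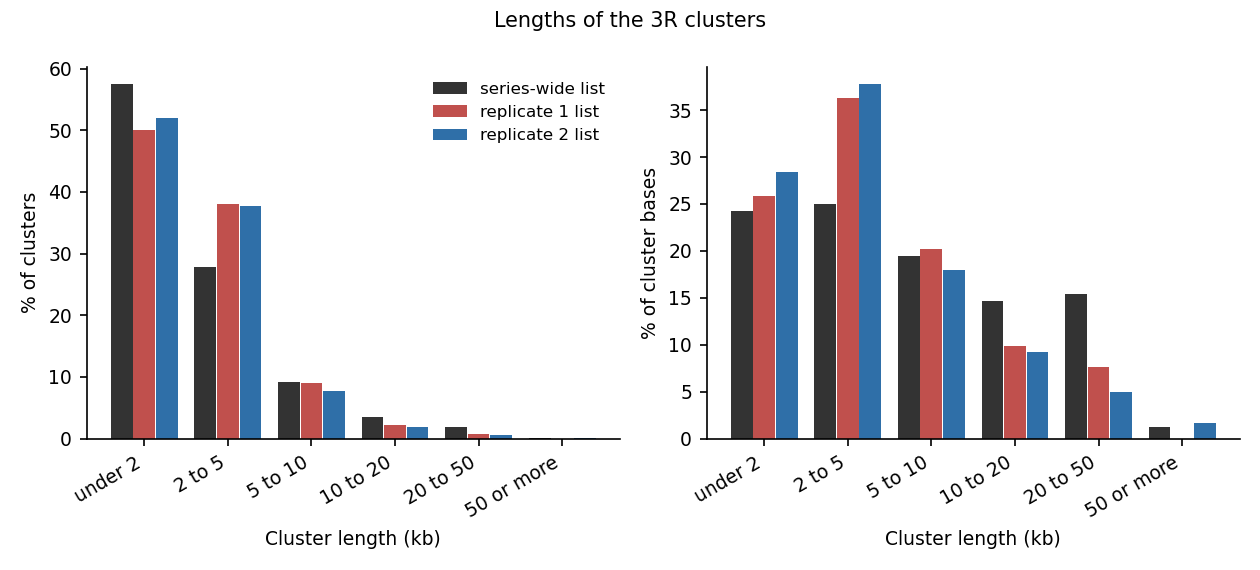
Share of 3R clusters (left, percent of clusters) and of the bases in them (right, percent of cluster bases) by cluster length in kb, for the series-wide, replicate 1 and replicate 2 lists. Clusters under 2 kb are 50.0% to 57.5% of each list, while clusters of 20 to 50 kb hold 15.4% of the series-wide bases, 7.65% of those of replicate 1 and 4.92% of those of replicate 2.

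Longer clusters had higher scores. The score is the authors' own value for each cluster, on a scale not given in the sources used here, and it is read within a list only. In the series-wide list its median was 0.388 for clusters under 2 kb, 0.504 for those of 5 to 10 kb and 0.663 for those of 20 to 50 kb. The same order held in replicate 1 (0.535, 0.706 and 0.810) and in replicate 2 (0.560, 0.713 and 0.839). The Spearman correlation of length and score across the 3R clusters was 0.43 in the series-wide list, 0.65 in replicate 1 and 0.59 in replicate 2. These are descriptions across clusters of one chromosome arm, which are not independent.

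Several of the 10 longest series-wide clusters of 3R, which measured 32.7 to 88.2 kb, lay close to each other. The longest, at 3R 10219064 to 10307280, is 88.2 kb long, and both replicates covered nearly all of it (98.8% in replicate 1 and 93.4% in replicate 2), in 4 and 6 pieces. The next longest was shorter by far, with 48.4 kb at 3R 5754942 to 5803370 (92.9% in replicate 1 and 82.9% in replicate 2). It was followed on its centromeric side, after a short gap, by the tenth longest at 3R 5721052 to 5753776 (32.7 kb, 97.7% and 70.8%). A group of 3 lay within 3R 14809444 to 14957602, with shorter clusters between the first and the next. The longest of the 3, 44.3 kb from 14874848 to 14919110, was a single cluster in each replicate, with 99.0% of its bases in replicate 1 and 98.8% in replicate 2. The other members were 36.4 kb from 14809444 (97.9% and 98.4%) and 34.8 kb from 14922772 (94.7% and 78.3%). A pair at 3R 26103774 to 26143942 (40.2 kb) and 26149998 to 26188014 (38.0 kb) was cut into 7 pieces each in replicate 1, and into 3 and 4 pieces in replicate 2. The remaining members were 35.8 kb at 3R 6371418 to 6407214 (86.3% and 91.5%) and 32.8 kb at 3R 20414810 to 20447638 (97.0% and 99.5%).

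In the replicate lists, the longest 3R cluster was not at the same place. In replicate 1 it was the longest of the group of 3, at 14875182 to 14919010 (43.8 kb, score 0.810), and 99.5% of its bases lay in 1 cluster of replicate 2. In replicate 2 it was 58.3 kb long, at 10239698 to 10297998 (score 0.811), and 99.8% of its bases lay in 3 clusters of replicate 1. Each place was thus found in both replicates, and the lists differed in how it was cut into clusters. All 117 series-wide clusters of 10 kb or more on 3R met clusters of both replicates, as did 99.8% of such clusters in the whole list. They were met by a median of 3 clusters in each replicate, and at most 10 in replicate 1 and 9 in replicate 2. Of the 117, 17 were met by 1 cluster in replicate 1 and 11 in replicate 2. The median share of their bases in a replicate list was 83.2% in replicate 1 and 76.5% in replicate 2, and the lowest was 10.6% and 16.2%.

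The highest scores of the series-wide list went to clusters of opposite kinds. Of the 5 highest on 3R, 3 were at or near the length minimum and were in neither replicate list, at 8745852 to 8746852 (score 1.90), 25910508 to 25911594 (1.12) and 21149876 to 21150894 (0.923). Each was shorter than any cluster of the replicate lists. The other two were domains found nearly whole in both replicates, at 12068594 to 12085942 (17.3 kb, 1.02) and 14809444 to 14845892 (36.4 kb, 0.897). The place at 12068594 also had the highest 3R score of each replicate. In replicate 1 this was 1.13 at 12076108 to 12085798 and in replicate 2 it was 1.05 at 12069100 to 12085902. The 3 short high-scoring clusters thus had no counterpart in the replicate lists, and the 2 long ones had.

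Clusters of 3R stood close together in groups with wide spaces between the groups. The median space between neighbours was 1973 bp in the series-wide list, 2810 bp in replicate 1 and 2999.5 bp in replicate 2, while the mean was 8653, 18362 and 18874 bp. Of the spaces, 35.2% were under 1 kb in the series-wide list, 28.9% in replicate 1 and 27.6% in replicate 2. Spaces of 10 kb or more were 19.4%, 28.1% and 28.8%. When clusters less than 5 kb apart were joined, 86.4% of series-wide clusters, 80.6% of replicate 1 clusters and 79.5% of replicate 2 clusters had at least 1 companion. The largest such chain of the series-wide list held 29 clusters over 251 kb, at 3R 6269506 to 6520416. The largest chain of replicate 1 by number (22 clusters, 6276752 to 6351535) and that of replicate 2 (23 clusters, 6312586 to 6438102) lay inside it. By length the order differed in replicate 1, where a chain of 20 clusters at 10169812 to 10333723 was 164 kb long.

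Isolated clusters were few and short. Clusters with no neighbour within 20 kb on either side numbered 40 (1.85%) in the series-wide list, 66 (5.46%) in replicate 1 and 71 (5.98%) in replicate 2. Their median length was 1277, 1642 and 1565 bp, against 2090, 2306 and 2199 bp for clusters with a neighbour closer than 1 kb. Neighbouring clusters were weakly alike in length, with a Spearman correlation across neighbours of 0.20, 0.17 and 0.16. Neighbouring spaces were alike to a similar degree, at 0.17, 0.19 and 0.21.

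The profile along 3R alternated between rich and poor stretches over distances well under 1 Mb. Over 103 full windows of 250 kb, counted from the 2 Mb border, the covered share ran from 0.70% to 84.1% in the series-wide list, from 0 to 52.2% in replicate 1 and from 0 to 54.2% in replicate 2. At least 50% of the covered bases lay in the richest 29.1% of windows of the series-wide list and in the richest 23.3% of windows of each replicate. Over 259 full windows of 100 kb these shares were 23.6%, 16.2% and 15.8%, and 15, 50 and 45 windows held no cluster base. Windows along the arm were weakly alike. The Pearson correlation between neighbouring windows of 100 kb was 0.31, 0.23 and 0.21, and between 100 kb windows 500 kb apart it was 0.022, 0.022 and -0.0096. With windows of 250 kb it was 0.13, 0.095 and 0.067 between neighbours and 0.11, 0.14 and 0.091 at 500 kb. In 5 equal parts of 5.18 Mb each, from the centromeric side outward, the series-wide share was 24.9%, 30.5%, 23.1%, 29.8% and 30.5%. In replicate 1 the parts had 12.8%, 16.6%, 11.8%, 14.7% and 15.7%, and in replicate 2 they had 11.6%, 14.5%, 10.8%, 13.5% and 15.4%. The middle part was the least covered in all 3 lists.

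**Figure D2:**
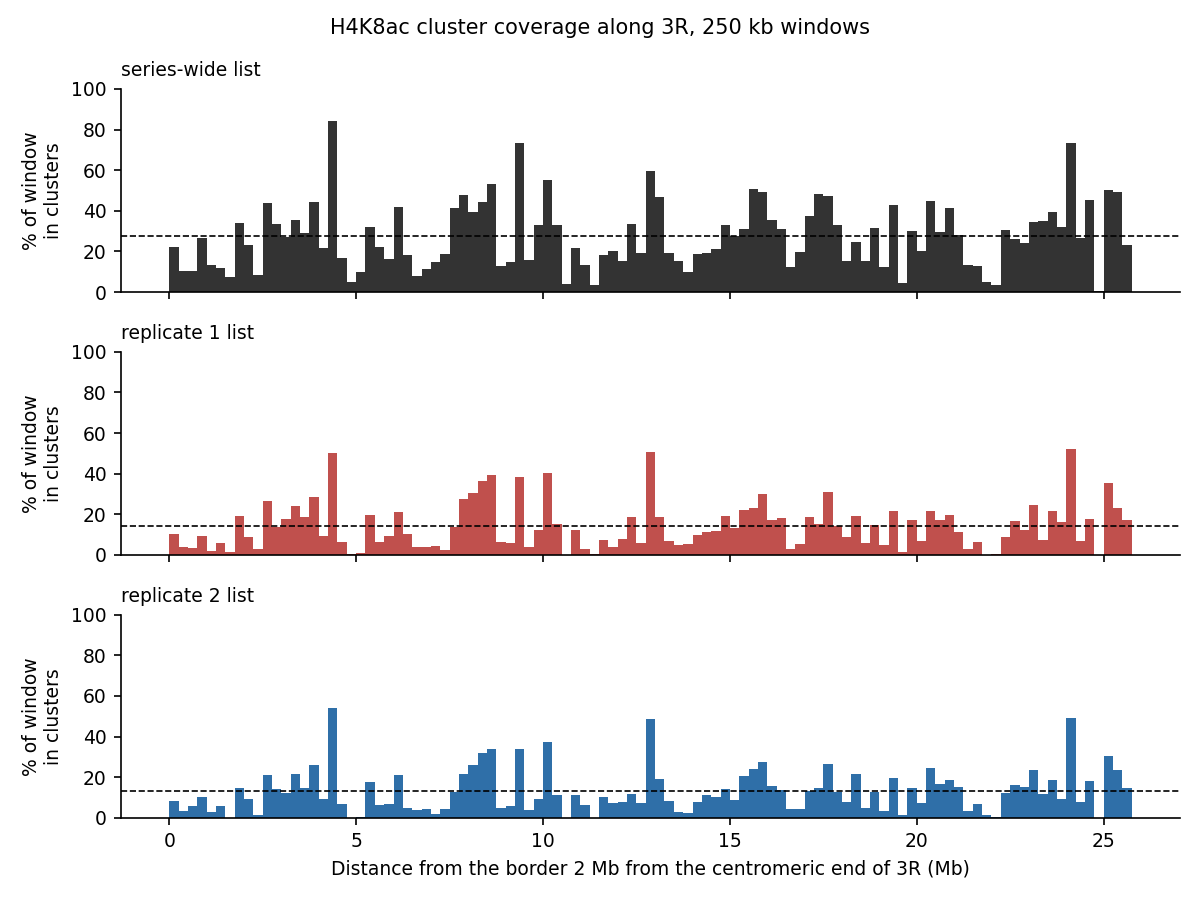
Percent of each 250 kb window of 3R lying in H4K8ac clusters (vertical axis) against the distance in Mb from the border that leaves out the 2 Mb nearest the centromere (horizontal axis), for the series-wide list and each replicate. Dashed lines mark the share over the whole stretch (27.8%, 14.3% and 13.2%), and the tallest bar of the series-wide list, 84.1%, is also the tallest of replicate 2 at 54.2%.

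The richest 250 kb of 3R was at 6250001 to 6500000, with 84.1% covered in the series-wide list, 50.3% in replicate 1 and 54.2% in replicate 2. The next 4 by the series-wide list were at 26000001 to 26250000 (73.6%, 52.2% and 49.4%), 11250001 to 11500000 (73.3%, 38.4% and 33.7%), 14750001 to 15000000 (59.6%, 50.8% and 48.5%) and 12000001 to 12250000 (55.3%, 40.6% and 37.3%). All 5 were among the 6 richest windows of each replicate. They were built in different ways. The window at 14750001 held 11 cluster starts in replicate 1 and 15 in replicate 2, in long clusters, whereas the window at 6250001 held 43 and 41. The window at 11250001 showed the widest gap between the series-wide list and each replicate, at 34.9 percentage points above replicate 1 and 39.6 above replicate 2.

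Rich windows had both more and longer clusters than poor ones. In the upper quartile of the 100 kb windows, as chosen in each list by its own share, the median number of clusters was 12 in the series-wide list, 10 in replicate 1 and 10 in replicate 2. In the lower quartile it was 3, 0 and 0. The mean cluster length in the upper quartile was 4592, 3702 and 3398 bp, against 1626.5, 1546 and 1529 bp in the poorest. The windows were chosen by share, which number and length make up, so these values are a description. The lower quartile held only 14 clusters in replicate 1 and 20 in replicate 2, against 653 and 656 in the upper quartile. Longer clusters scored higher within each list, so the score is not a separate reading. The median score, which the choice did not use directly, was 0.611 in the upper and 0.498 in the lower quartile in replicate 1, and 0.627 and 0.568 in replicate 2. In the series-wide list it was 0.428 and 0.410.

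Dense blocks were taken as runs of 2 or more neighbouring 100 kb windows in the upper quartile of the list, which for the series-wide list meant a share of at least 40.4%. There were 15 in the series-wide list, 15 in replicate 1 and 14 in replicate 2, and they held 36.3%, 39.0% and 39.1% of the cluster bases. The longest series-wide blocks were 400 kb, and the longest blocks of replicate 2 reached 500 kb. All 15 series-wide blocks lay above the share of the whole stretch in both replicates, and 14 of the 15 also reached the upper quartile of each. Of their 42 windows taken singly, 35 were in the upper quartile of replicate 1 and 32 in that of replicate 2. Nearly every replicate cluster met a series-wide one. The 100 kb profile of the series-wide list had a Spearman correlation of 0.94 with that of each replicate. The lists are thus not separate readings, and these counts are a description. The lists did not place all blocks alike, as seen after the values were known. Those at 9600001 to 9900000, 19200001 to 19600000 and 26500001 to 26700000 were blocks of the series-wide list alone. As a whole, the one at 9600001 still reached the upper quartile of each replicate (30.7% in replicate 1 and 25.3% in replicate 2). So did the one at 26500001 (21.3% and 21.7%). Sequence at 19700001 to 19900000 and at 25000001 to 25200000 lay in a block of both replicates and in no series-wide one. By bases in clusters, the leading block was at 14800001 to 15200000, with 64.6% in the series-wide list, 43.6% in replicate 1 and 42.3% in replicate 2. Next were 25900001 to 26300000 (62.7%, 40.2% and 36.0%), 17400001 to 17800000 (59.5%, 34.1% and 32.4%) and 27100001 to 27400000 (67.9%, 40.8% and 36.8%). The fifth, at 19200001 to 19600000, had 50.7% in the series-wide list but 17.9% in replicate 1 and 16.6% in replicate 2, below the upper quartile of each. It held 32 clusters in replicate 1 and 35 in replicate 2, close to the 32 and 36 of the leading block, but no long ones. Its longest was 6250 bp in replicate 1 and 3418 bp in replicate 2, while the series-wide list had one of 17.6 kb.

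The most covered single windows of 100 kb were picked out after their values were seen. The highest of the series-wide list, at 5700001 to 5800000, stood alone. It was covered over 97.0% in the series-wide list, 88.1% in replicate 1 and 75.4% in replicate 2. The window before it had 6.78%, 0% and 0%, and the window after it had 22.5%, 8.88% and 3.78%. The step into it was the steepest between neighbouring windows of 3R in each list. The highest window of both replicates was at 10200001 to 10300000, with 96.9% in the series-wide list, 92.6% in replicate 1 and 85.3% in replicate 2.

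Windows picked in one replicate were read in the other, which the choice had not used. Of the 65 richest windows of 100 kb in replicate 1, 58 (89.2%) were in the upper quartile of replicate 2, where 25.1% of all 259 windows fall by definition. In replicate 2 these windows had a median share of 29.6%, against 4.54% in the rest. Read the other way, 58 of the 65 richest windows of replicate 2 were in the upper quartile of replicate 1, with a median of 32.3% against 5.30%. Of the 65 poorest windows of each, 52 (80.0%) were in the lower quartile of the other, and the highest share among them was 6.24% in replicate 2 and 7.07% in replicate 1.

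The replicate profiles had a Spearman correlation of 0.97 across the 103 windows of 250 kb and 0.95 across the 259 windows of 100 kb. The median absolute difference between the replicates was 1.68 percentage points at 250 kb and 2.07 at 100 kb. Replicate 1 was the higher in 65 windows of 250 kb and replicate 2 in 36. The widest differences both lay toward the distal end. At 25250001 to 25500000 replicate 1 had 7.44% and replicate 2 had 11.7%, and at 25750001 to 26000000 replicate 1 had 16.4% and replicate 2 had 9.40%.

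**Figure D3:**
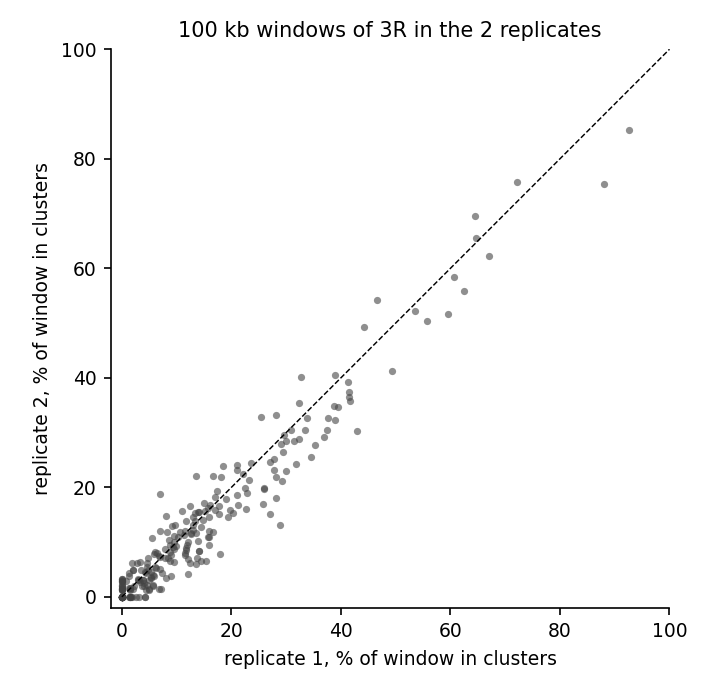
Percent of each of the 259 full 100 kb windows of 3R lying in clusters in replicate 1 (horizontal axis) and replicate 2 (vertical axis), 1 point per window, with the line of equal share dashed. The points follow the line (Spearman correlation 0.95), and the widest departures are 15.8 percentage points higher in replicate 1 and 11.8 higher in replicate 2.

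Long stretches of 3R held no cluster at all. In the series-wide list 27 stretches were cluster-free over 100 kb or more, 4.18 Mb in sum or 16.1% of the stretch described. Each replicate had 51, which made up 38.9% of it in replicate 1 and 37.5% in replicate 2. Of the 27, 26 were free of replicate 1 clusters and 24 free of replicate 2 clusters from end to end. The 5 longest of these measured 198 to 240 kb, and no cluster of either replicate fell in any of them. They were at 3366997 to 3606845 (240 kb), 16148953 to 16366175 (217 kb), 23939843 to 24149381 (209.5 kb), 20174215 to 20376379 (202 kb) and 18613979 to 18812327 (198 kb). Nearly every replicate cluster of 3R met a series-wide one, 1205 of 1208 in replicate 1 and 1180 of 1187 in replicate 2. A stretch free of series-wide clusters was thus nearly bound to be free of replicate clusters, and these counts are a description.

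**Figure D4:**
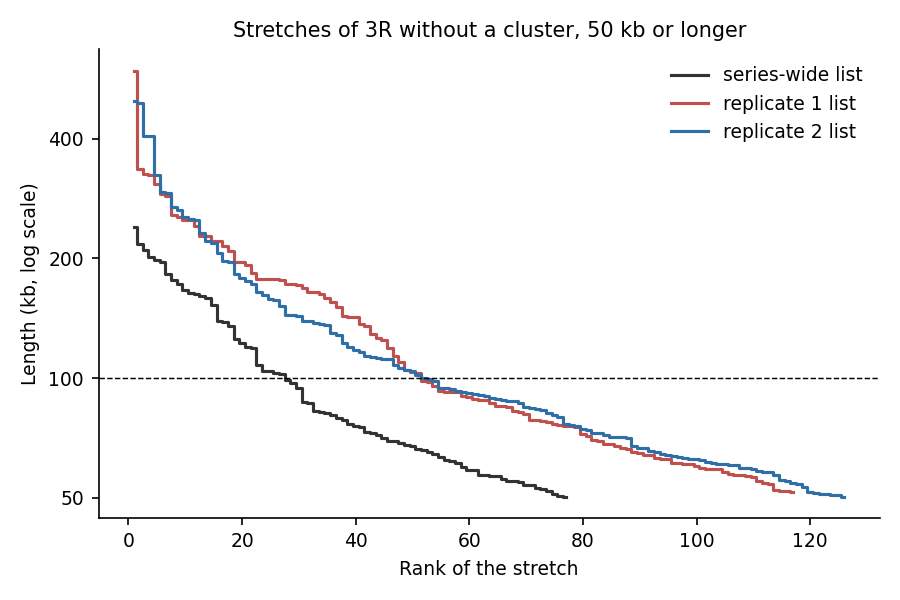
Lengths in kb (vertical axis, log scale) of the 3R stretches of at least 50 kb with no cluster, ranked from the longest (horizontal axis), for the series-wide list and each replicate, with 100 kb dashed. At 100 kb the lines stand at 27 stretches in the series-wide list and 51 in each replicate.

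The longest stretches with no cluster in either replicate were longer, and the series-wide list put short clusters in them. There were 46 of 100 kb or more, 8.02 Mb in sum. The series-wide list covered 3.34% of this sequence with 192 clusters that lay wholly inside, of median length 1232 bp and at most 3883 bp, and left 1 of the 46 without a cluster lying inside it. The 5 longest were at 23753744 to 24159153 (405 kb), 12475137 to 12811262 (336 kb), 26723915 to 27047605 (324 kb), 8549286 to 8839076 (290 kb) and 6704967 to 6992139 (287 kb). The series-wide list covered 3.75%, 4.49%, 0.547%, 2.97% and 3.37% of them. The short cluster with the highest series-wide score on 3R, 1.90, lay inside the one at 8549286.

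The 46 stretches made up 30.9% of the sequence described, and windows chosen for low coverage were likely to meet one. The share over all windows was not counted. The 5 least covered windows of 250 kb each overlapped at least 1 of the 46. By the series-wide list they were 26750001 to 27000000 (0.70%, and 0 in both replicates), 13250001 to 13500000 (3.39%, 0.552% in replicate 1 and 0 in replicate 2), 24000001 to 24250000 (3.62%, 0.62% and 0.539%), 12500001 to 12750000 (4.13%, and 0 in both replicates) and 21500001 to 21750000 (4.49%, 1.58% and 1.35%). A wide part of 3R around 2 of these held no long cluster. From 12159126, the end of one cluster of 10 kb or more, to 13522680, the start of the next, the series-wide list had only shorter clusters, and this was the widest such interval, of 1364 kb against a median of 114 kb. It was picked out after its value was seen.

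Poor runs, taken as 2 or more neighbouring 100 kb windows in the lower quartile of the series-wide list (10.4% or less), numbered 14. All 14 were below the share of the whole stretch in both replicates, and 6 of the 14 had no cluster base in replicate 1 and 6 none in replicate 2. Only 1 of the 259 windows of 100 kb had a higher share in replicate 1 than in the series-wide list, and 1 in replicate 2. Low replicate shares in these runs thus followed largely from the choice. The longest ran over 700 kb from 23600001 to 24300000, with 3.47% covered in the series-wide list, 0.222% in replicate 1 and 0.621% in replicate 2. Runs of 300 kb were at 26700001 to 27000000 (3.11%, 0.474% and 0.439%), 12500001 to 12800000 (3.45%, 0 and 0) and 21500001 to 21800000 (4.08%, 1.32% and 1.12%). The least covered of the 200 kb runs, from 3400001 to 3600000, had no cluster base in any list. Rich and poor sequence could lie side by side: the poor run at 26700001 followed a dense block at 26500001 to 26700000 and was followed by another at 27100001 to 27400000, with 1 window between.

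The last Mb of the arm was covered above the share of the whole stretch, but unevenly. In the last Mb the share was 37.6% in the series-wide list, 23.1% in replicate 1 and 21.0% in replicate 2, above the 27.8%, 14.3% and 13.2% of the whole stretch. The last cluster ended at 27894160 in the series-wide list and at 27894158 in replicate 1, about 10.9 kb before the end of the arm. That last cluster of replicate 1 was 1612 bp long and followed 76.0 kb without a cluster. In replicate 2 the last cluster ended at 27816837, which left 88.2 kb without one. Within the last Mb, replicate 1 also had no cluster from 27553960 to 27730361 (176 kb). Replicate 2 had none from 27550520 to 27757157 (207 kb).

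The replicates shared most of the longer 3R clusters and fewer of the shortest. Of the replicate 1 clusters, 836 of 1208 (69.2%) had at least 1 base in common with a replicate 2 cluster, against 68.6% in the whole list. Of the replicate 2 clusters, 866 of 1187 (73.0%) had a base in common with replicate 1, against 73.4% in the whole list. On 3R the share was thus close to that of the genome. Among clusters under 2 kb it was 49.8% in replicate 1 and 56.0% in replicate 2, where the whole lists had 49.8% and 56.3%. Among clusters of 2 to 5 kb it was 85.2% and 89.0% (whole lists 83.9% and 88.6%), and among clusters of 5 to 10 kb it was 108 of 109 and 92 of 92 (whole lists 99.6% and 99.8%). All clusters of at least 10 kb were shared, 36 in replicate 1 and 30 in replicate 2, as in the whole lists (100%). A longer cluster meets the rule of 1 common base more easily, so the rise with length can follow in part from the rule. With reciprocal overlap of 50%, 44.0% of replicate 1 clusters and 44.8% of replicate 2 clusters of 3R were shared (whole lists 44.2% and 45.9%). This stricter share was not split by length. Nearly every replicate cluster of 3R met a series-wide cluster, 1205 of 1208 in replicate 1 (whole list 99.6%) and 1180 of 1187 in replicate 2 (whole list 99.4%). The longest cluster unshared between the replicates was 5408 bp at 26231983 to 26237390 in replicate 1 and 4790 bp at 8079809 to 8084598 in replicate 2.

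Shared clusters matched in place more than in outline. On 3R 2.48 Mb lay in both replicates, which was 66.8% of the bases of replicate 1 and 72.6% of those of replicate 2. In 722 pairs each cluster was the largest overlap of its partner, and in these the starts differed by a median of 488 bp and the ends by 429 bp. Both ends agreed within 100 bp in 33 pairs (4.57%). Replicate 1 had the longer cluster in 430 pairs and replicate 2 in 290. Across the pairs the Spearman correlation was 0.61 for length and 0.48 for score, and longer clusters scored higher within each list, so these are not separate measures.

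The series-wide clusters on 3R that were in both replicates were long, and they made up more of the clusters in rich windows than in poor ones. Of the 2160, 549 (25.4%, against 25.2% of the whole list) met clusters of both replicates, 287 (13.3%, against 13.5%) of replicate 1 alone, 230 (10.6%, against 10.9%) of replicate 2 alone and 1094 (50.6%, against 50.4%) of neither. The median length was 5401 bp for those in both, which held 60.3% of the series-wide 3R bases, and 1313 bp for those in neither, which held 22.6%. Of the 1094 in neither, 534 were shorter than any replicate cluster. Of the clusters that began in the upper quartile of the 100 kb windows, 36.4% were in both and 39.3% in neither. In the middle windows these shares were 20.6% and 55.0%, and in the lower quartile 5.33% and 75.1%. Clusters in poor windows were also shorter, with a median of 1395 bp against 2229 bp in the upper quartile, and the part of length in this difference was not tested. The windows were ranked by the share of the same list, so part of the difference can follow from the choice.

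Set beside 3 other arms cut in the same way, 3R was close to 2L, below 3L and above the X. The mean covered share of the replicates was 13.7% ± 0.815 on 3R, against 14.0% ± 0.873 on 2L, 18.7% ± 0.816 on 3L and 10.5% ± 0.682 on the X (SD, n = 2 for each arm). Arm 2R, cut in the same way, had 18.4% ± 1.01 (SD, n = 2), also above 3R, and was left out of the comparisons below. The difference of 3R from 2L was -0.23 percentage points ± 0.058 (SD, n = 2), smaller than that between the replicates on 3R. From 3L it was -4.98 points in each replicate, and from the X it was 3.31 and 3.13 points. An exact sign-flip test over 2 replicates cannot give a two-sided p below 0.5, which is what these 3 differences gave, so the test cannot tell the arms apart in this design. The 3 arms were compared on 7 quantities, 21 comparisons in all. In clusters per Mb 3R was level with 2L, below 3L and above the X, with 46.6 and 45.8 in replicates 1 and 2 on 3R, against 47.5 and 45.7 on 2L, 58.3 and 56.2 on 3L, and 42.9 and 39.0 for the X. In the series-wide list 3R had 83.4, nearly as many as the X with 84.3, but its clusters were longer, at a mean of 3331 bp against 2946 bp.

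**Figure D5:**
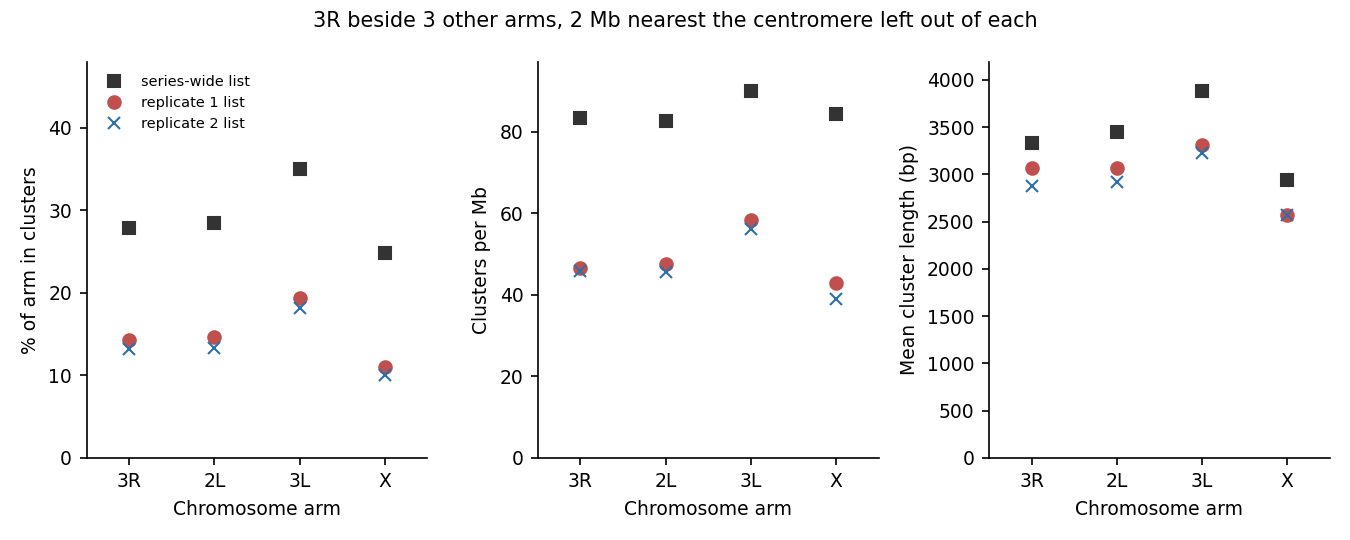
Percent of the arm in clusters (left), clusters per Mb (middle) and mean cluster length in bp (right) on 3R, 2L, 3L and the X, each without the 2 Mb nearest the centromere, for the series-wide list and each replicate. On 3R the covered share is 27.8%, 14.3% and 13.2%, next to that of 2L at 28.5%, 14.6% and 13.4%.

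Long clusters were less dense on 3R than on 3L. Clusters of 10 kb or more numbered 1.39 and 1.16 per Mb on 3R in replicates 1 and 2, against 1.76 and 1.33 on 2L, 2.44 and 2.00 on 3L, and 0.881 and 0.832 for the X. The share of sequence in cluster-free stretches of 100 kb or more was 38.9% and 37.5% on 3R, against 41.2% and 43.6% on 2L, 27.4% and 31.2% on 3L, and 41.2% and 39.4% for the X. The agreement of the replicate profiles at 250 kb was alike on the 4 arms, with a Spearman correlation of 0.966 on 3R, 0.978 on 2L, 0.978 on 3L and 0.965 on the X. The share of replicate 1 clusters found in replicate 2 was 69.2% on 3R, against 68.7% on 2L, 70.5% on 3L and 63.1% on the X.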

How the data were processed

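Per the submitters' processing notes, the aligner was Bowtie 0.12.7. The deposited lists use FlyBase release 5, per the file headers. Each cluster was deposited by the authors with its start, its end and a score. The sources used here do not give the caller, its thresholds, how the inputs entered, whether replicates were pooled for the series-wide list or what the score is relative to. Depth is unknown, so no counting interval was made. There were 0 columns of other samples.

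Covered shares count each base once and use the arm length of the header. Windows of 100 and 250 kb were counted from the 2 Mb border, and the partial window at the end was left out. On 2L, 3L and the X the 2 Mb were taken from the high end. A cluster was shared when at least 1 base lay in the other list. Python 3.11.15, numpy 2.4.6 and pandas 2.3.3 were used, and the shared counts equalled those of bedtools 2.31.1. The interval functions were tested on simulated lists. Regions named are the longest and highest-scoring clusters, the leading blocks, runs, windows and cluster-free stretches. Members and lists were chosen with earlier results of these data known. No sequence is printed, since no genome of release 5 was used.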

Additional observations from a re-analysis of the deposited data

How the results depend on the processing

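The mean covered share of 3R in the replicates, 13.7%, was 8.61% when clusters below the median score were left out and 27.8% in the series-wide list, and moved by less than the SD under the other 6 alternatives (13.2% to 14.3% with either replicate left out). The mean share of clusters found in the other replicate, 71.1%, was 60.3% without clusters below the median score, 67.8% with clusters closer than 1000 bp merged, 62.2% when 50% had to be covered and 44.4% with reciprocal overlap of 50%. The correlation of the replicate profiles, 0.966, was 0.909 without clusters below the median score, 0.911 in 50 kb windows and 0.899 for numbers of cluster starts, and moved by less than 0.05 under 5 others. The 27 cluster-free stretches were 46 without clusters below the median score, 39 without series-wide clusters shorter than the shortest replicate cluster, 51 in either replicate list, 46 in the union of the replicate lists, 77 with a limit of 50 kb and 4 with one of 200 kb. The 15 dense blocks were 5 in 250 kb windows and 5 with windows at or above the 90th percentile, and 14 to 16 under 7 others. Leaving out clusters can lower covered bases and widen, join or add cluster-free stretches by construction, and stricter overlap can lower the shared portion. For other changes the cause was not tested. No paired analysis was possible because only the ChIP group has lists analysed here, and the input libraries with the same numbers have none. Overlap and profile agreement need both replicates and have no value with one left out. Depth is unknown, so a cluster-free stretch is one with no listed cluster and not one shown to lack the mark.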
